A study of Mus musculus with 16 samples.

Results

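The 41 genes described here are members of glycolysis and of the transcriptional response to low oxygen. They were taken by gene name from the 22772 named genes in the deposited tables. All 41 were among the 16078 named loci, called genes below, with enough counts to be tested. They form 2 sets, 21 glycolytic enzymes and transporters and 20 other hypoxia response genes. RNA was sequenced from embryoid bodies, floating clumps of differentiating stem cells, at day 6 of SFEBq differentiation, a serum-free method that reaggregates dissociated cells to grow eye-field and other forebrain tissue. All groups came from a mouse embryonic stem cell line that carries a GFP knock-in at the eye-field homeobox gene Rx (Rax), and were grown in GMEM with 5% knockout serum replacement and 2% matrigel from day 1. WT libraries came from untreated cells with intact Wdr5, which encodes a subunit shared by the MLL histone methyltransferase complexes. KO libraries came from a Wdr5 knockout clone without doxycycline. The T12h and T48h rescue groups were the knockout with doxycycline-inducible human WDR5, to which doxycycline was added at the times named T12h (12 h) or T48h (48 h), with no starting point stated.

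Glycolysis splits glucose into pyruvate in the cytosol, and lactate dehydrogenase then converts pyruvate to lactate, which monocarboxylate transporters carry out of the cell. Hypoxia-inducible factors (HIFs) pair an oxygen-regulated alpha subunit, HIF-1alpha (Hif1a) or HIF-2alpha (Epas1), with a stable beta subunit, and raise transcription of most glycolytic genes when oxygen is low. In oxygen, prolyl hydroxylases of the EGLN family mark the alpha subunits for destruction, so the mRNA level of Hif1a does not report the activity of its protein. Early embryonic cells and embryonic stem cells use glycolysis heavily even in oxygen.

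Each group had 2 duplicates with 2 technical runs each. The technical columns were summed, which gave 8 libraries with 32095043 to 64778334 fragments in named genes. The libraries of a group are called a and b. The columns do not say which duplicate each is. Nothing in the labels says that duplicates came from separate cultures, so p-values measure how far these libraries spread, and part of that may be technical. Wdr5 stood at 189 CPM (fragment counts after scaling all libraries to one size) in both WT libraries and 33.0 and 28.8 in KO. It stood at 334 and 342 CPM under T12h rescue and 285 and 299 under T48h rescue. The induced WDR5 is human, while counts were made on the mouse genome. How far its reads were counted as mouse Wdr5 is not given, so the rescue levels cannot be set directly against WT. The knockout was 1 clone, so a difference of that clone from its parent line that is not due to Wdr5 cannot be told apart from the loss of Wdr5. Doxycycline was given to the rescues and not to the WT or KO cells, so the drug and the induced WDR5 cannot be told apart either.

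In FPKM, which corrects fragments for transcript length and library size, the highest were Ldha (lactate dehydrogenase A), at 799 FPKM in WT, and Aldoa (aldolase A), at 771 FPKM. Tpi1 (triosephosphate isomerase) at 412 FPKM, and the glucose transporters Slc2a1 (GLUT1) at 353 FPKM and Slc2a3 (GLUT3) at 336 FPKM, came next. The lowest were Gapdh at 0.795 FPKM and Car9, a carbonic anhydrase that is a standard hypoxia marker, at 0.780 FPKM. Gapdh is normally among the most abundant mRNAs, and its sequence is shared with many processed pseudogenes. Of its 50-base stretches, 82.5% also occurred in annotated pseudogenes, and 85 pseudogenes shared 100 or more of them with it. The same share was 68.0% for Pgk1, 52.8% for Eno1 and 41.5% for Pgam1, and at most 21.9% for the others. The levels of these 4 genes are therefore uncertain. Without them the counts below were 28 of 37 members lower in KO than in WT in place of 31 of 41, with the same 5 higher.

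The proximal promoters were searched for ACGTG and GCGTG, the core letters of the hypoxia response element that HIFs bind. RefSeq promoters on GRCm38.p6, from 250 bases before to 50 after the start, were found for 35 of the 41 genes. Some genes have several promoter entries. In the first entry of each gene, ACGTG or GCGTG on either strand was present in 26 of these 35 (74.3%). Over all 52 entries of these genes it was present in 39 (75.0%), beside 43.8% of all 32851 promoter entries of the same length. ACGTG alone was present in 19 of the 35 first entries (54.3%) and 27 of the 52 (51.9%), beside 19.6% of all entries. The palindrome CACGTG counts as ACGTG on both strands. The promoters of 4 genes on which the results below turn are printed 5′ to 3′ along the gene's strand, with the matching letters and their reverse complements in capitals. Bnip3 lies at chr7:138909457-138909756 (minus strand), Gys1 at chr7:45434589-45434888 (plus), Ldha at chr7:46845554-46845853 (plus) and P4ha2 at chr11:54100674-54100973 (plus). They show that the motif was dense in the first, absent from the second and present in genes that moved in opposite directions in KO. A match is a description of the sequence and not a binding site.
Bnip3: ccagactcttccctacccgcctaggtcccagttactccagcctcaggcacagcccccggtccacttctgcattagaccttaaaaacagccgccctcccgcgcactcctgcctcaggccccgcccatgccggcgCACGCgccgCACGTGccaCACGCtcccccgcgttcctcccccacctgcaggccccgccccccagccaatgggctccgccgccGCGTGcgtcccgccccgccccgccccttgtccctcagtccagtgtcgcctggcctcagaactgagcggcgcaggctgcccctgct
Gys1: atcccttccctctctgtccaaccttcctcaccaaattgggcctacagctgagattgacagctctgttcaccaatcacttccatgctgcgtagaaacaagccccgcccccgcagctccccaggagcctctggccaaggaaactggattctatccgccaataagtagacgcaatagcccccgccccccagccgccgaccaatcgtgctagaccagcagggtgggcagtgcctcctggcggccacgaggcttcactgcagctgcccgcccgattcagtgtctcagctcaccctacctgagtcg
Ldha: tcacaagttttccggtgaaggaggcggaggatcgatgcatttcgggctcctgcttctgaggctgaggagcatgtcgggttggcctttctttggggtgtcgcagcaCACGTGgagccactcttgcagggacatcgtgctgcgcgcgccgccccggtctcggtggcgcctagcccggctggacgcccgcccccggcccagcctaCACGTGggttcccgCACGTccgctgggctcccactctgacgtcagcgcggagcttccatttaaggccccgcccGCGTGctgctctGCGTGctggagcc
P4ha2: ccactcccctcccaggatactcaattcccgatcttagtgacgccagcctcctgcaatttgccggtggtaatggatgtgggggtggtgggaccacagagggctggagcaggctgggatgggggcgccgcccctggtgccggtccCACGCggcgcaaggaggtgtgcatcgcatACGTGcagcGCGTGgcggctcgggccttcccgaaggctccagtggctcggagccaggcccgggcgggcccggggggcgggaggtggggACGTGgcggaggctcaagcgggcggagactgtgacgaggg

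In KO, 31 of the 41 genes were lower than in WT and 5 were higher, at an adjusted p under 0.05 (edgeR quasi-likelihood test, Benjamini-Hochberg adjustment over all 16078 genes). Of all genes tested, 32.3% were lower and 31.8% were higher. The median change of the 41 genes was -0.99 on the log2 scale, against 0.00439 over all genes. Among the glycolytic enzymes and transporters 18 of 21 fell and 1 rose, with a median of -1.18, and among the other hypoxia response genes 13 of 20 fell and 4 rose, with a median of -0.81. At 2-fold or more, 20 of the 41 fell and 3 rose, where 15.6% of all genes fell and 17.9% rose by that much. As these are bulk libraries, less RNA per cell and fewer cells that carry it cannot be told apart.

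**Figure D1:**
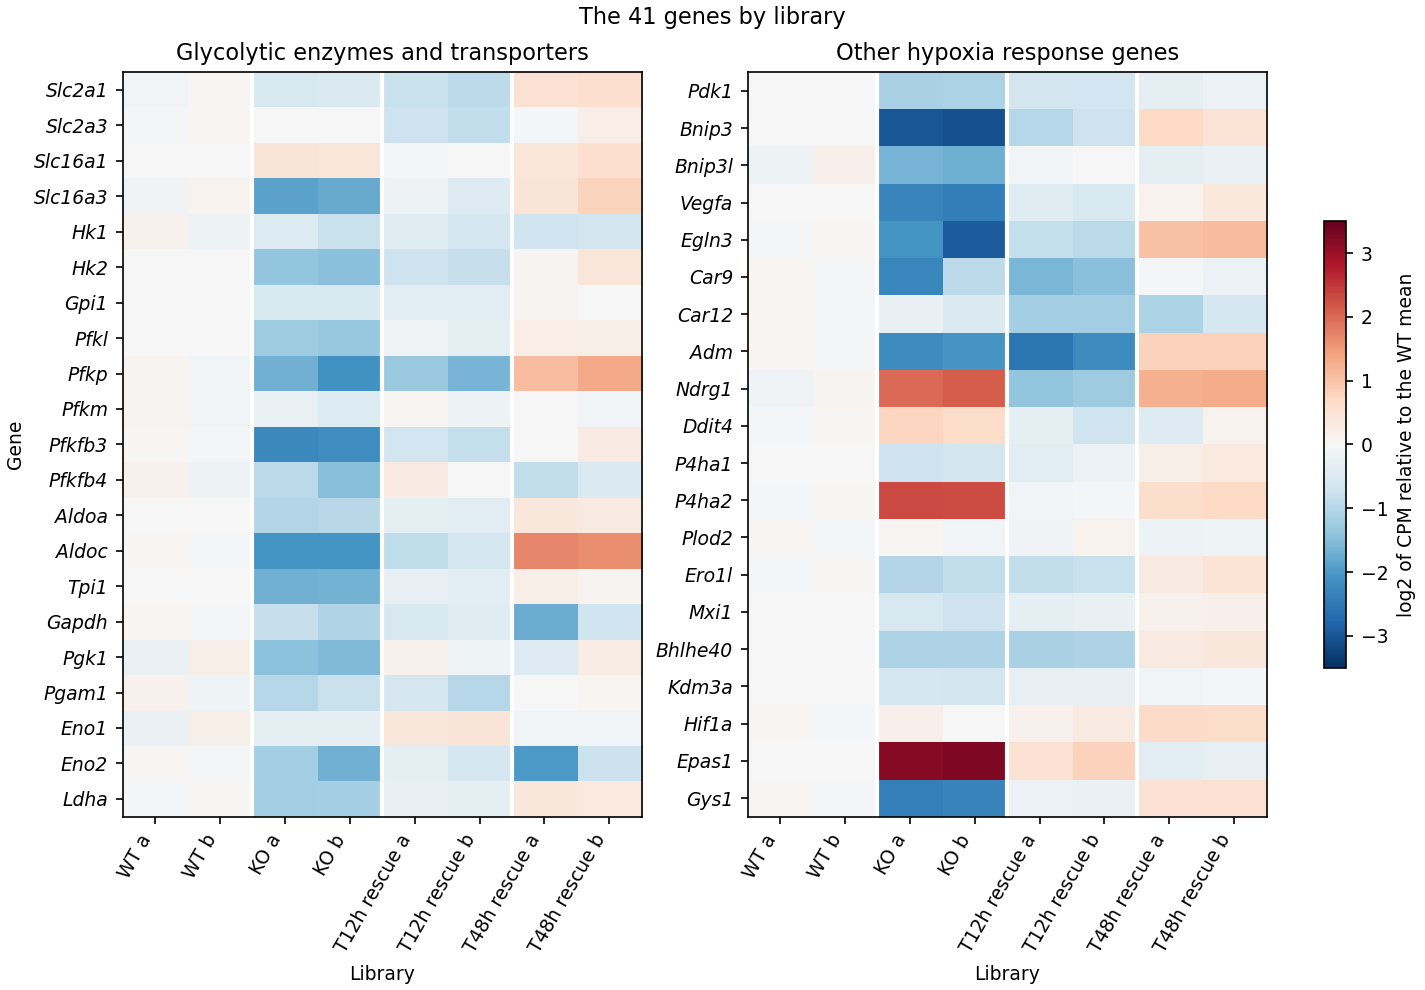
Level of each of the 41 genes in each of the 8 libraries, as log2 of the CPM relative to the WT mean (colour scale), in 2 panels for the glycolytic genes and the other hypoxia response genes. Most genes are blue in both KO libraries, Ndrg1, P4ha2 and Epas1 are red there, and most are redder in the T48h than under T12h rescue.

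The mRNAs for most steps from glucose to lactate fell in KO. For the steps of Gapdh, Pgk1, Pgam1 and Eno1 the levels are uncertain, as given above. Tpi1, which interconverts the products of aldolase, stood at 719 and 705 CPM in WT, 221 and 227 in KO, 582 and 546 under T12h rescue and 826 and 766 under T48h rescue. All 6 other libraries lay far above both KO libraries. Tpi1 fell by 1.67 ± 0.07 on the log2 scale in KO (adjusted p = 2.4e-10). Pfkfb3, which makes the activator of phosphofructokinase fructose 2,6-bisphosphate, stood at 107 and 99.7 CPM in WT and 21.5 and 22.8 in KO. It stood at 64.4 and 58.0 CPM under T12h rescue and 105 and 127 under T48h rescue, so that the T12h libraries lay between KO and WT and the T48h libraries overlapped WT. Its fall in KO was 4.66-fold (log2 -2.22 ± 0.11, adjusted p = 1.3e-09), the largest of the glycolytic set.

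Ldha, which regenerates NAD+ by reducing pyruvate to lactate, stood at 1355 and 1452 CPM in WT, 599 and 615 in KO, 1161 and 1115 under T12h rescue and 1862 and 1789.6 under T48h rescue. The groups did not overlap, with KO lowest and the T48h rescue highest. The fall in KO was 2.31-fold (log2 -1.21 ± 0.07, adjusted p = 3.5e-09). Pfkl, the liver-type phosphofructokinase, stood at 738 and 721 CPM in WT, 309 and 289 in KO, 676 and 583 under T12h rescue and 860.1 and 839 under T48h rescue. Again both KO libraries lay below all others, and Pfkl fell 2.44-fold in KO (log2 -1.29 ± 0.08, adjusted p = 9.3e-09). Aldoa fell from 1246 and 1253 CPM in WT to 618 and 641 in KO (log2 -0.99 ± 0.06, adjusted p = 1.9e-08).

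Of the other glycolytic genes, Aldoc (aldolase C) fell 4.28-fold. Pfkp (platelet-type phosphofructokinase, log2 -1.88), Slc16a3 (the lactate exporter MCT4, -1.83), Pgk1 (phosphoglycerate kinase, -1.48), Hk2 (hexokinase, which traps glucose in the cell, -1.41), Eno2 (neuronal enolase, -1.40) and Pfkfb4 (a relative of Pfkfb3, -1.18) fell by 2-fold or more. Pgam1 (phosphoglycerate mutase, -0.89), Hk1 (-0.61), Slc2a1 (-0.54), Gpi1 (glucose-6-phosphate isomerase, -0.53), Pfkm (muscle-type phosphofructokinase, -0.36) and Eno1 (enolase, -0.32) fell by less. The call of Pfkm was lost without WT library a or KO library b, that of Eno1 without WT library b or KO library b, and both on the FPKM scale, with a highest adjusted p of 0.094 and 0.31. Slc2a3 stood at 1383 and 1524 CPM in WT and 1447 and 1456 in KO and did not pass the test (log2 -0.0015 ± 0.09), and Gapdh, with 11 to 39 fragments per library, did not either. Slc16a1 (MCT1) rose by 0.44 ± 0.07 on the log2 scale, and it is listed at 2 loci with the same coordinates, so that its level is uncertain. The 2 lactate transporters thus moved in opposite directions.

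Among the other 20 hypoxia response genes, the largest falls in KO were those of Bnip3, Egln3, Gys1, Vegfa and Adm. Bnip3, a mitochondrial outer-membrane protein that drives mitophagy, stood at 92.4 and 94.6 CPM in WT, 11.7 and 11.1 in KO, 47.2 and 56.9 under T12h rescue and 153 and 130.5 under T48h rescue. The 4 groups did not overlap, and KO lay far below the rest. Its fall in KO was 8.17-fold (log2 -3.03 ± 0.12, adjusted p = 1.4e-10). Its relative Bnip3l (NIX) fell by 1.66 ± 0.10 on the log2 scale.

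Gys1, the muscle-type glycogen synthase, stood at 80.5 and 76.7 CPM in WT, 15.1 and 15.4 in KO, 68.2 and 67.2 under T12h rescue and 112 and 113 under T48h rescue. Duplicates agreed closely and no groups overlapped. The fall in KO was 5.15-fold (log2 -2.37 ± 0.09, adjusted p = 8.8e-11). Vegfa, the growth factor of blood vessels, stood at 140.1 and 141 CPM in WT, 28.4 and 26.1 in KO, 104 and 96.4 under T12h rescue and 153 and 182 under T48h rescue. It was lowest in KO and fell 5.14-fold there (log2 -2.36 ± 0.10, adjusted p = 2.6e-10).

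Egln3 (log2 -2.41), a HIF prolyl hydroxylase that is itself a HIF target, and Adm (adrenomedullin, -2.13), a vasodilator peptide, also fell over 4-fold. Pdk1, which limits the use of pyruvate inside the mitochondrion by inhibiting pyruvate dehydrogenase, fell by 1.12. Bhlhe40, a transcriptional repressor, fell by 1.07. Ero1l, an oxidase of the endoplasmic reticulum, stood at 109 and 116 CPM in WT and 55.7 and 61.8 in KO (log2 -0.94 ± 0.09). P4ha1 (-0.69), Mxi1 (a MYC antagonist, -0.64) and Kdm3a (a histone H3 lysine 9 demethylase, -0.63) fell by less than 2-fold. Car9, with 23 to 62 fragments per library, fell by 1.47 ± 0.61 at an adjusted p of 0.048, and lost that call under 11 of 21 alternatives, among them the omission of either WT library, KO library a or either T12h library. Its change was -0.93 without KO library a and -2.28 without KO library b. Car12, another carbonic anhydrase (-0.37 ± 0.17, adjusted p = 0.068) and Plod2, a lysyl hydroxylase of collagen (-0.02 ± 0.08), did not pass the test.

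The 4 hypoxia response genes that rose in KO were Epas1, P4ha2, Ndrg1 and Ddit4. Epas1 stood at 88.4 and 89.9 CPM in WT, 817 and 863 in KO, 129 and 155 under T12h rescue and 68.6 and 72.4 under T48h rescue. The KO libraries stood far above all others, and the 4 groups did not overlap. The rise in KO was 9.42-fold (log2 3.24 ± 0.09, adjusted p = 1.3e-11). P4ha2, a catalytic subunit of the collagen prolyl 4-hydroxylase, stood at 53.8 and 57.0 CPM in WT, 273 and 269.8 in KO, 51.9 and 54.0 under T12h rescue and 84.6 and 90.4 under T48h rescue. The T12h libraries overlapped WT, and the T48h libraries lay between WT and KO. P4ha2 rose 4.89-fold in KO (log2 2.29 ± 0.08, adjusted p = 4.7e-11), while P4ha1, its paralogue, fell.

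Ndrg1, a stress-responsive gene that hypoxia induces in many cell types, stood at 41.8 and 48.9 CPM in WT, 178 and 198 in KO, 17.4 and 19.1 under T12h rescue and 108 and 111 under T48h rescue. It was highest in KO and lowest under T12h rescue, with no overlap between groups. The rise in KO was 4.14-fold (log2 2.05 ± 0.10, adjusted p = 9.9e-10). Ddit4 (REDD1), an inhibitor of mTORC1, rose by 0.70 ± 0.15. Hif1a stood at 228 and 213 CPM in WT, 247 and 222 in KO, 243 and 274 under T12h rescue and 349.8 and 344 under T48h rescue. WT and KO overlapped, and Hif1a did not pass the test in KO (log2 0.09 ± 0.08, adjusted p = 0.34). A second locus with the same name and coordinates, at 0.490 to 9.33 CPM, was not added to it.

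**Figure D2:**
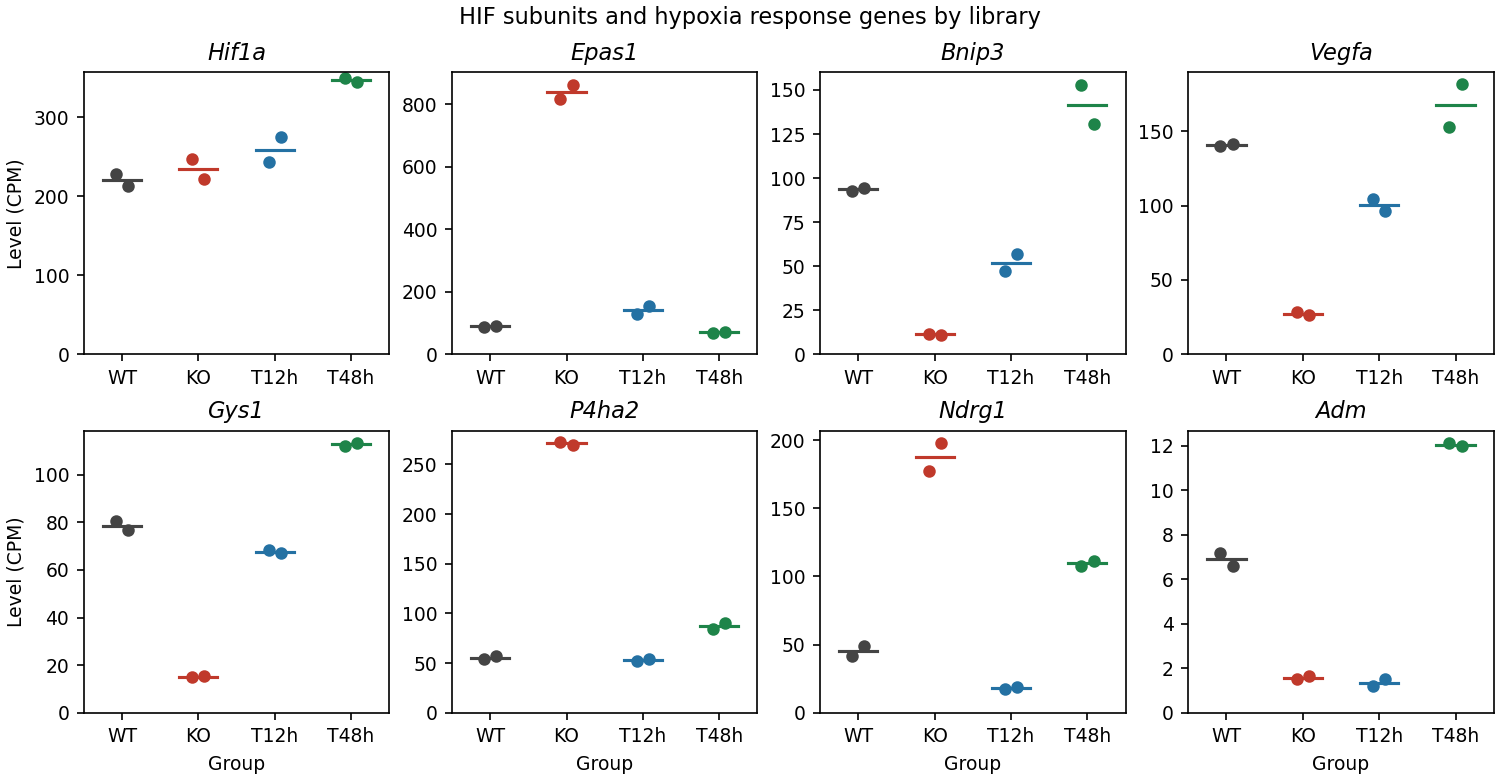
CPM of 8 hypoxia response genes in each library (points) with the group mean (line), by group. Bnip3, Vegfa and Gys1 are lowest in KO, Epas1, P4ha2 and Ndrg1 are highest there, Hif1a rises above the other groups under T48h rescue, and Adm is at a KO-like level of 1.18 and 1.498 CPM under T12h rescue.

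Because several reactions are carried out by paralogues, their shares were computed per transcript length. As a share of the summed FPKM of the pair, Epas1 made up 26.4% of the HIF alpha subunits in WT, 76.1% in KO, 32.7% under T12h rescue and 15.3% under T48h rescue. The P4ha2 share of the prolyl 4-hydroxylase pair was 29.2%, 76.3%, 32.8% and 34.5% in the same order. Both pairs thus had another leading paralogue in KO than in the other 3 groups.

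Hk2 made up 75.9 ± 2.4% (SD, n = 2) of the hexokinase FPKM in WT, 64.4 ± 2.6% in KO, 72.4 ± 0.93% under T12h rescue and 85.4 ± 1.8% under T48h rescue. Pfkl remained the leading phosphofructokinase in every group, at 72.1% to 82.2%. The Pfkp share was 6.27% in WT, 4.93% in KO, 2.54% under T12h rescue and 11.3% under T48h rescue, and the Pfkm share was highest in KO, at 23.0%. No test was run on these shares.

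**Figure D3:**
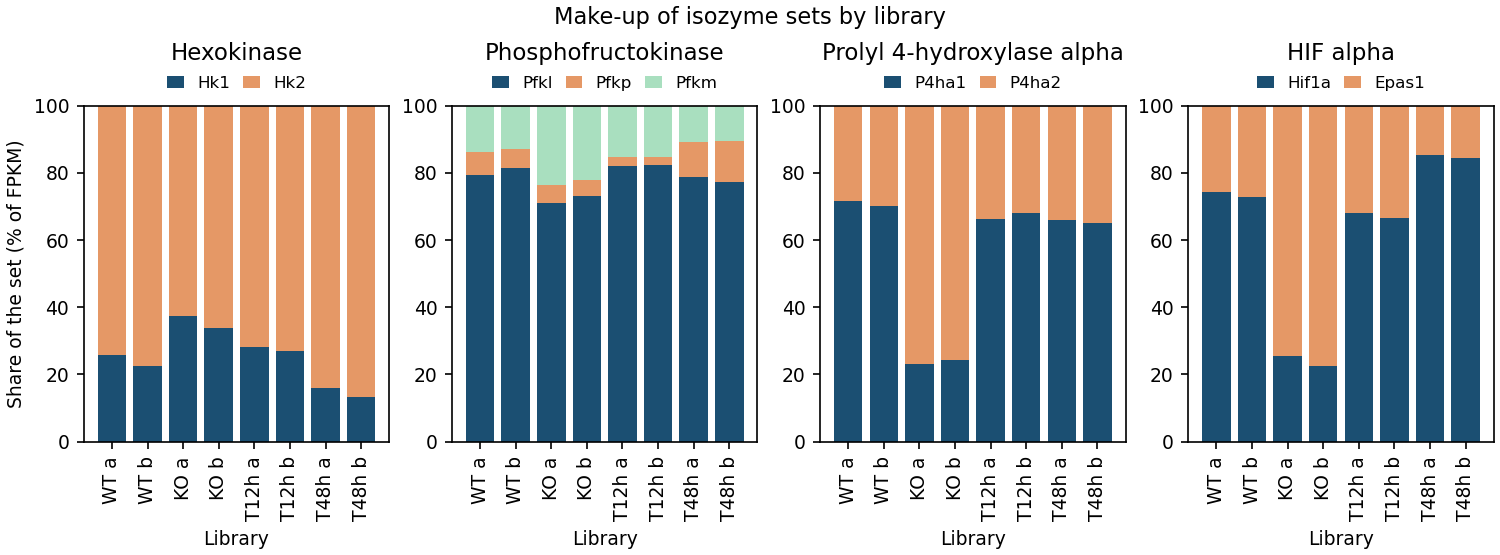
Share of the summed FPKM held by each paralogue in the 8 libraries, for hexokinase, phosphofructokinase, the prolyl 4-hydroxylase alpha subunits and the HIF alpha subunits (stacked bars, each to 100%). Epas1 and P4ha2 hold most of their sets in both KO libraries.

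In the T12h rescue, 23 of the 41 genes were higher than in KO and 8 were lower, where 32.7% of all genes were higher and 32.1% lower. The median change was 0.39 on the log2 scale, against -0.00935 over all genes. The glycolytic set had 14 of 21 higher and 3 lower (median 0.66), and the other set had 9 of 20 higher and 5 lower (median 0.13). In the T48h rescue, 27 were higher than in KO and 5 were lower, where 34.1% of all genes were higher and 33.3% lower. At 2-fold or more, 12 were higher and 4 lower than KO with the T12h rescue (15.2% and 19.4% of all genes), and 19 and 2 with the T48h rescue (16% and 20.9%). The median change with the T48h rescue was 0.97 on the log2 scale, against -0.00379 over all genes, with 14 of 21 glycolytic genes higher and none lower and 13 of the other 20 higher and 5 lower. Leaving out KO library b lowered the T12h count of higher genes to 19. The comparisons of KO with WT and of each rescue with KO use the same KO libraries, so they are not independent of each other.

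Tpi1 rose by 1.33 ± 0.07 on the log2 scale under T12h rescue (adjusted p = 1.7e-09) and by 1.83 ± 0.07 under T48h rescue (9.2e-11). Pfkl rose by 1.08 ± 0.08 and 1.51 ± 0.08, Ldha by 0.91 ± 0.06 and 1.59 ± 0.07, and Pfkfb3 by 1.47 ± 0.11 and 2.39 ± 0.11, in the same order. Gys1 rose by 2.15 ± 0.09 and 2.89 ± 0.09, Bnip3 by 2.18 ± 0.11 and 3.63 ± 0.12, and Vegfa by 1.88 ± 0.10 and 2.61 ± 0.10. Each of these 7 genes thus passed the test in both rescues, with adjusted p of at most 5.6e-08. Bnip3l rose by 1.59 and 1.39, Slc16a3 by 1.51 and 2.45, and Egln3 by 1.53 and 3.48.

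The 4 hypoxia response genes that were high in KO fell in both rescues. Epas1 fell by 2.56 ± 0.09 on the log2 scale under T12h rescue (adjusted p = 5.0e-11) and fell by 3.58 ± 0.09 under T48h rescue (4.6e-12). P4ha2 fell by 2.36 ± 0.08 and 1.63 ± 0.08, and Ddit4 by 1.20 ± 0.15 and 0.82 ± 0.15. Ndrg1 fell by 3.36 ± 0.10 under T12h rescue, to below the WT level, and by 0.78 ± 0.09 under T48h rescue.

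Slc2a1 was the one gene of the 41 that passed the test in opposite directions in the 2 rescues. It stood at 975 and 1095 CPM in WT, 703 and 724 in KO, 601 and 554 under T12h rescue and 1495 and 1568 under T48h rescue. The groups did not overlap, and the T12h libraries were the lowest. Slc2a1 fell by 0.31 ± 0.07 on the log2 scale from KO to the T12h rescue (adjusted p = 0.0026) and rose by 1.10 ± 0.07 under T48h rescue (2.3e-08). Of all genes tested, 3.23% were lower under T12h rescue and higher under T48h rescue, and 2.33% went the other way, none of them among the 41. Slc2a3 fell to 883 and 804 CPM under T12h rescue (log2 -0.78 ± 0.09) and stood at 1415 and 1705 CPM under T48h rescue, which overlapped KO.

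Adm (log2 -0.23 ± 0.26), Bhlhe40 (-0.04 ± 0.12) and Ero1l (0.11 ± 0.09) did not pass the test between the T12h rescue and KO, while under T48h rescue they rose by 2.94, 1.43 and 1.34. Pfkp rose by 0.44 ± 0.14 under T12h rescue, a call that was lost without KO library b, without T12h library a and on the FPKM scale, and by 3.08 ± 0.15 under T48h rescue. Plod2 did not pass the test in either rescue, nor in any other comparison.

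**Figure D4:**
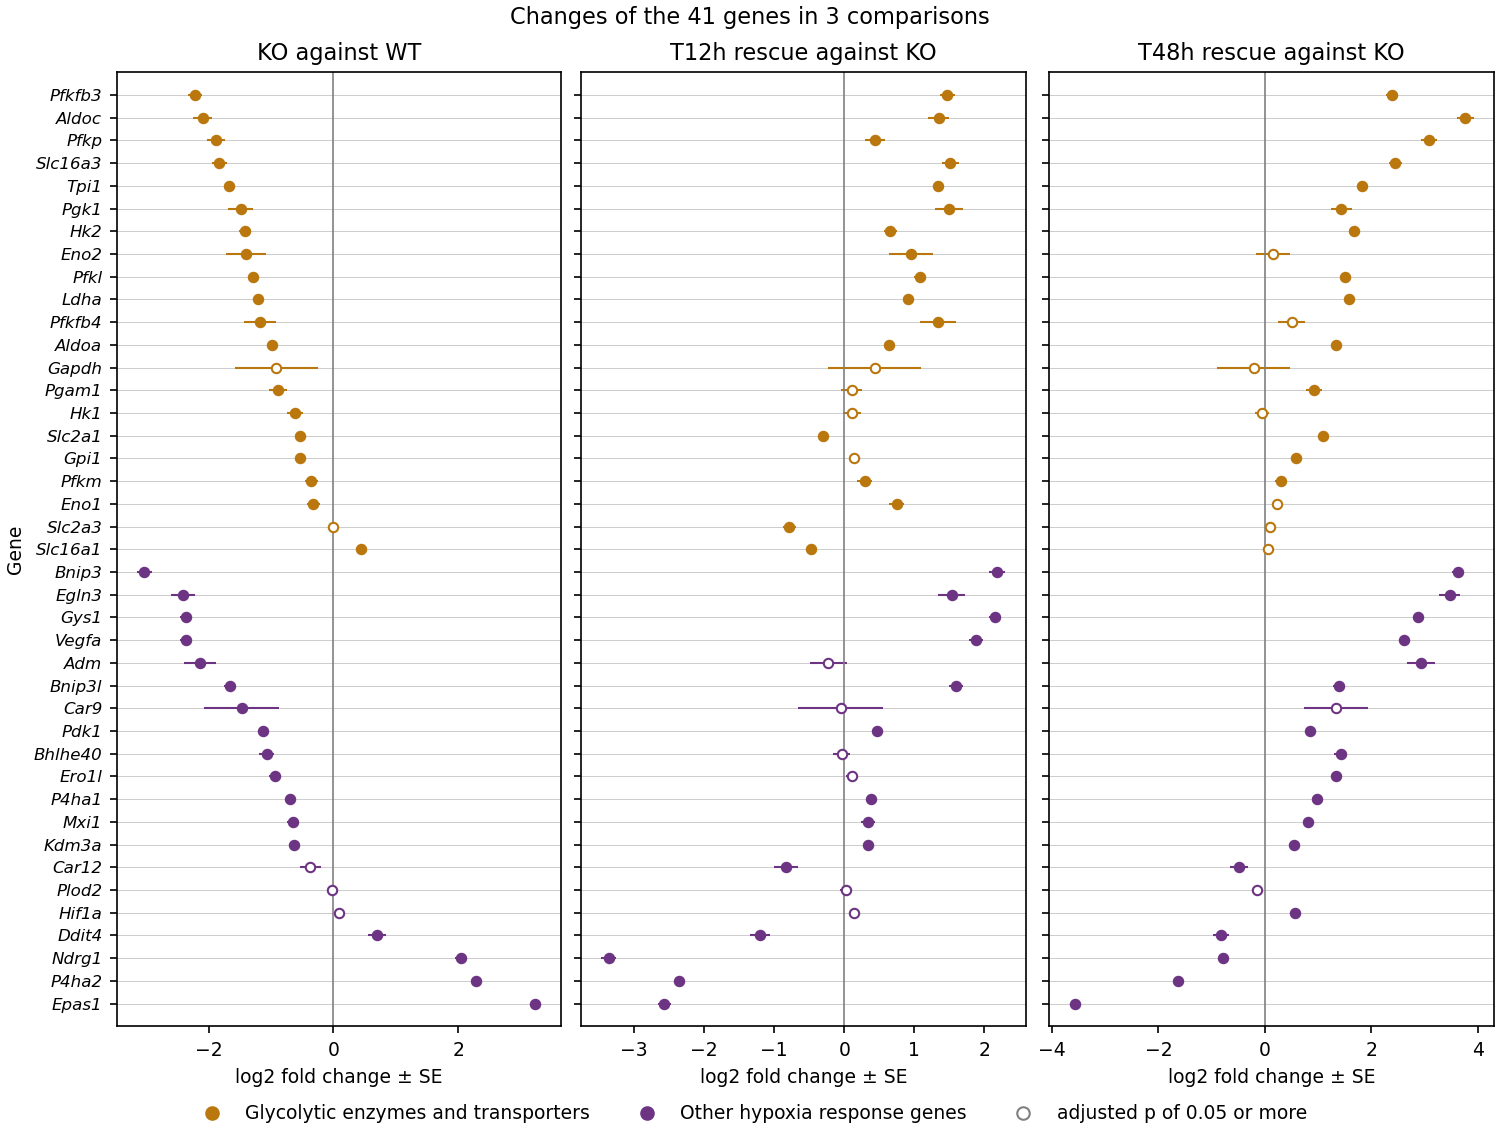
Log2 fold change with its SE (edgeR) of the 41 genes in KO against WT, the T12h rescue against KO and the T48h rescue against KO. Filled points passed an adjusted p under 0.05, open points did not, and colour gives the gene set. Most genes lie left of 0 in the first panel and right of it in the third, and Slc2a1 and Slc2a3 lie left of 0 in the second.

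The rescues also differed from each other. In the T48h rescue 29 of the 41 genes were higher than under T12h rescue and 3 were lower, where 24.9% of all genes were higher and 25.3% lower. The median change was 0.59 on the log2 scale, against -0.0304 over all genes. The glycolytic set had 14 of 21 higher and the other set 15 of 20. The 3 that were lower were Epas1, Eno1 and Pfkfb4, and their number was 5 without T48h library b. The Pfkfb4 call was lost without T12h library a, without T48h library a and on the FPKM scale. Among the higher genes, the libraries of Ddit4 overlapped between the rescues (log2 0.38 ± 0.15, adjusted p = 0.048). Its call was lost under 14 of 21 alternatives, and that of Kdm3a under 9 of 21. At 2-fold or more 10 were higher, namely Slc2a1, Hk2, Pfkp, Aldoc, Bnip3, Egln3, Adm, Ndrg1, Ero1l and Bhlhe40, and Epas1 was lower, beside 11% and 11.9% of all genes.

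Pfkp stood at 168 and 149 CPM in WT, 49.2 and 36.2 in KO, 64.5 and 51.5 under T12h rescue and 333 and 394 under T48h rescue. The T48h libraries stood above WT and the T12h libraries just above KO. The difference between the rescues was 6.27-fold (log2 2.65 ± 0.15, adjusted p = 4.7e-09). Aldoc stood at 16.8 and 15.8 CPM in WT, 3.80 and 3.81 in KO, 8.85 and 10.6 under T12h rescue and 53.2 and 50.5 under T48h rescue. It made up 1.15% of the summed FPKM of the 2 aldolases in WT and 2.81% under T48h rescue. It was highest under T48h rescue, 5.35-fold over the T12h rescue (log2 2.42 ± 0.14, adjusted p = 1.1e-08).

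Aldoa itself stood at 994 and 955 CPM under T12h rescue and 1639 and 1548 under T48h rescue (log2 0.71 ± 0.06, adjusted p = 7.1e-07). Slc2a1 differed by 1.41 ± 0.07 on the log2 scale (3.3e-09). Both T48h libraries of either gene lay above all WT libraries and both T12h libraries below them.

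Ndrg1 was 6.01-fold higher in the T48h than under T12h rescue (log2 2.59 ± 0.10, adjusted p = 1.5e-10). Adm, at 12.1 and 11.98 CPM under T48h rescue, differed 8.99-fold (log2 3.17 ± 0.26, adjusted p = 3.4e-07), and Egln3 3.86-fold. Ero1l stood at 61.5 and 65.4 CPM under T12h rescue and 141 and 156 under T48h rescue (log2 1.23 ± 0.09, adjusted p = 6.6e-08). Bhlhe40 stood at 33.7 and 33.0 CPM in WT, 15.9 in both KO libraries, 15.3 and 15.7 under T12h rescue and 41.5 and 43.9 under T48h rescue. KO and the T12h rescue lay side by side, and the T48h rescue was higher by 1.46 ± 0.12 on the log2 scale (adjusted p = 2.6e-07). Bnip3 differed by 1.45 ± 0.11, and Hif1a by 0.42 ± 0.08 (adjusted p = 0.00064).

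Against WT, the T12h rescue had 24 of the 41 genes lower and 2 higher, where 6.12% of all genes were lower and 7.91% higher. The 24 were split evenly, with 12 in each set, and the median change of the 41 genes was -0.45 on the log2 scale, against -0.00361 over all genes. The falls were mostly under 2-fold, and 5 reached it in the lower and 0 in the higher direction (2.49% and 0.815% of all genes). The 5 were Adm (log2 -2.36), Pfkp (-1.45), Ndrg1 (-1.31), Car12 (-1.20) and Bhlhe40 (-1.11). Egln3 (-0.88), Bnip3 (-0.85), Slc2a1 (-0.84), Ero1l (-0.83), Slc2a3 (-0.78), Pgam1 (-0.78, a call lost without WT library a), Hk2 (-0.76), Pfkfb3 (-0.75) and Aldoc (-0.75) followed. Gys1 (-0.21 ± 0.08, adjusted p = 0.096) and Pfkl (-0.21 ± 0.08, 0.084) did not pass the test. The 2 that were higher were Epas1, by 0.67 ± 0.09, and Eno1, by 0.42 ± 0.11. The Eno1 call was lost without WT library a, without either T12h library and on the FPKM scale, which left 1. Without WT library a the number of lower genes was 19.

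The T48h rescue had 20 of the 41 genes higher than WT and 7 lower, where 23.9% of all genes were higher and 23.4% lower. The median change of the 41 genes was 0.17 on the log2 scale, against -0.0393 over all genes. With upper-quartile scaling 15 members were higher and 9 lower, and over all genes 3052 were higher and 4750 lower. Aldoc (log2 1.67), Ndrg1 (1.27), Pfkp (1.20) and Egln3 (1.07) were 2-fold or more above WT, and Eno2 (-1.25) was below it by as much, where 9.49% and 12.4% of all genes were. Eno2 stood at 3.60 and 8.59 CPM under T48h rescue, and its change from WT was -0.75 without T48h library a and -2.03 without library b. Hif1a was higher by 0.66 ± 0.08 (adjusted p = 1.7e-05), and Slc2a1 by 0.56 ± 0.07. Between 14 and 21 members were higher when 1 library was left out, with 14 without either WT library and 15 without T48h library b, and 4 were lower without T48h library a. Across all 4 groups, KO was lowest for 23 of the 41 genes with no overlap with any other library, as for 27.2% of all genes, and highest for 4 (28.8%). The T48h rescue was highest for 19 (19.4%). The T12h rescue was lowest for 6, namely Slc2a1, Slc2a3, Car12, Adm, Ndrg1 and Bhlhe40 (8.12%). Of these, Adm and Bhlhe40 lay close to KO and did not pass the test against it (adjusted p = 0.46 and 0.80). Car12 did not pass it against the T48h rescue (adjusted p = 0.11).

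Summed over the set, the 21 glycolytic genes made up 8143 and 8498 CPM in WT, 4880.5 and 4901 in KO, 6270.0 and 5837 under T12h rescue and 10165 and 10556 under T48h rescue. This sum follows the most abundant members, above all Ldha, Aldoa and the glucose transporters. For the other 20 genes, the sum was 2583 and 2616 CPM in WT and 3034 and 3003 in KO, where Epas1 alone made up 817 and 863. The sum of the first set was thus lower in KO than in WT and that of the second higher, although most genes of both fell.

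Cell type markers moved with the groups. The summed level of 6 pluripotency markers was 548 to 562 CPM in KO, 83.2 to 90.9 in WT, 20.9 to 24.2 under T12h rescue and 27.6 to 32.5 under T48h rescue. The sum of 7 eye-field and neural progenitor markers was 1462 to 1517 CPM in WT and 1809 to 1856 under T12h rescue, but 69.4 to 72.8 in KO and 29.8 to 30.7 under T48h rescue. That of 7 cardiac and lateral plate mesoderm markers was 2441 to 2524 CPM under T48h rescue and 11.4 to 23.2 elsewhere. Endothelial markers (6 genes) summed to 739.5 to 771 CPM under T48h rescue and 94.6 to 150.4 elsewhere. Fibroblast markers (6 genes) summed to 786 to 874 CPM under T48h rescue and 18.7 to 127 elsewhere. Endoderm markers (6 genes) summed to 385 to 389 CPM in KO and 91.3 to 129 elsewhere, and the 5 erythroid markers found to at most 13.2 in any library. Emcn and Hbb-y were at 0 in KO and Dcn under T12h rescue. The part of these cell types in the changes of the glycolytic and hypoxia genes was not tested. The labels do not give the oxygen level of the cultures.

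Genes of the same pathways outside the 41 were read from lists. Of 12 oxygen-sensing and HIF partner genes, 6 fell and 1 rose in KO, where 32.3% of all genes fell and 31.8% rose. Arnt2, a HIF beta subunit of neural tissue, went from 111 to 14.1 CPM (mean of 2 libraries, log2 -2.97 ± 0.10, adjusted p = 5.2e-11), and stood at 151 under T12h rescue and 28.1 under T48h rescue. Egln1, the main HIF prolyl hydroxylase, fell by 1.07 ± 0.08, Siah2, a ubiquitin ligase, by 1.81 ± 0.24 and Hif3a, another HIF alpha subunit, by 1.57 ± 0.21. In each rescue 7 of the 12 were higher than in KO and none lower, where 32.7% (T12h) and 34.1% (T48h) of all genes were higher and 32.1% and 33.3% lower.

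Of 28 further hypoxia targets tested, 18 fell and 7 rose in KO, beside 32.3% and 31.8% of all genes, with a median of -0.91 on the log2 scale, against 0.00439 over all genes. Ak4, a mitochondrial adenylate kinase, fell by 2.61 ± 0.11, Ccng2, a cyclin of cell cycle arrest, by 1.83 ± 0.09, and Edn1 (endothelin-1) by 3.02 ± 0.16, while Hmox1 (heme oxygenase-1) rose from 39.1 to 168 CPM (adjusted p = 1.3e-10). Edn1 was lower still under T48h rescue, at 0.654 CPM against 4.20 in KO and 34.3 in WT (adjusted p = 7.2e-08 against KO). In the T12h rescue 16 of the 28 were higher than in KO and 8 lower (32.7% and 32.1% of all genes), and under T48h rescue 19 and 7 (34.1% and 33.3%).

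Of 18 further glycolysis and lactate genes tested, 6 fell and 7 rose in KO, shares near those of all genes (32.3% and 31.8%). Their median change was 0.60 on the log2 scale, against 0.00439 over all genes. Eno3, the muscle enolase, fell from 62.5 to 10.2 CPM (log2 -2.62 ± 0.10, adjusted p = 1.0e-10) and stood at 93.2 under T12h rescue and 96.0 under T48h rescue. Pkm, the pyruvate kinase of most tissues, fell from 2381 to 1245 CPM (log2 -0.94 ± 0.07). Slc2a4 (GLUT4) fell by 2.95 ± 0.26, and Fbp2, a fructose bisphosphatase that runs against glycolysis, rose from 1.27 to 19.9 CPM (log2 3.97 ± 0.39).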

How the data were processed

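The members, the pathway and marker lists and the tests were chosen with earlier results of these data known. Per the file headers, the authors deposited estimated counts of fragments and FPKM, fragments corrected for transcript length and library size, for 28432 loci in 16 columns. The submitters' processing notes name Cufflinks 2.2.1, TopHat2 2.1.1, deepTools, SAMtools 1.5 and the build mm10. Neither annotation nor strandedness is given in the sources used here, so reads of antisense or overlapping genes cannot be told apart. The deposited estimated counts were multiples of 1 factor per column (0.63 to 1.29 per fragment); with it divided out, 94.7% to 95.6% of low values were whole within 0.02. They were then rounded. The 112 companion columns of bounds and status entered no test.

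Columns name the group but not the duplicate or run. Technical pairs were found by a chi-square of counts, 1.57 to 1.81 per degree of freedom within pairs and 9.7 to 18.9 between them, and summed. Left out were 5143 loci without a name (3.04% to 3.4% of counts), 8 with too many fragments and 64 with a failed estimate. Of 2 loci sharing a name, the one with more counts was used.

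Genes were tested with edgeR 4.0.16 (R 4.3.3; TMM, filterByExpr, quasi-likelihood F-test, Benjamini-Hochberg) with 4 groups in 1 fit, which left 4 residual degrees of freedom. The common biological coefficient of variation was 12.5%. CPM use TMM-scaled library sizes. On data simulated for KO against WT (15675 genes), the test made 8 false calls. It recovered 48 of 50 genes changed by 1 and 50 of 50 changed by 2 on the log2 scale in either direction. The simulation gave every gene the same spread and changed only well-counted genes, far fewer than were called in KO. Its recovery and false calls therefore cannot be carried over to these data, least of all to low genes such as Gapdh and Car9. Alternatives were other scalings and filters, DESeq2 1.42.0, limma 3.58.1 on log2(FPKM + 1) or log2(FPKM + 0.1), single technical columns and libraries left out. Adding a constant to FPKM makes the change of low genes look smaller. Full values are given for Hif1a, Epas1, and in each set up to 4 genes with the smallest adjusted p per comparison, and for genes that the rescues moved in opposite directions. Pathway genes named are up to 4 per list with the smallest adjusted p in KO, of which 1 is not reported here. Pseudogene sharing used GENCODE vM21.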

Additional observations from a re-analysis of the deposited data

Results flagged for a closer look

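Of the 41 genes, 11 differed by 2-fold or more between the rescues, by the test of that difference itself. Both rescues share the KO as their control. Of all genes tested, 11% were higher and 11.9% lower by that much under T48h rescue. Among the 41 genes, 10 were higher, a larger share than among all genes, and 1 was lower, a smaller share. On the log2 scale, the T48h rescue was above the T12h rescue by 1.41 for Slc2a1, 1.02 for Hk2, 2.65 for Pfkp, 2.42 for Aldoc, 1.45 for Bnip3, 1.95 for Egln3, 3.17 for Adm, 2.59 for Ndrg1, 1.23 for Ero1l and 1.46 for Bhlhe40, and below it for Epas1, at -1.01. The rescues also differ in their cell type markers, as given above, and the part of these in the differences was not tested.

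A second locus of the name Hif1a, with the same coordinates, is outside the main measurement. It held 4.08 and 2.47 CPM in WT, 0.490 and 0.822 in KO, 1.503 and 2.12 under T12h rescue and 9.33 and 5.33 under T48h rescue. It was lower in KO than in WT (log2 -2.35, adjusted p = 0.00044) and higher under T48h rescue than in WT (log2 1.16, adjusted p = 0.030), in both libraries of each. What transcripts it covers is not given in the sources used here.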

How the results depend on the processing

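The 246 tests of the 41 genes in 6 comparisons were repeated under 21 alternatives, or 20 for Gapdh, which a filter of 1 CPM in 2 libraries removed. Of 184 calls, 156 were kept under every one and 28 were lost under 1 or more, and 30 of the 62 other values were called under 1 or more. The same tally over all genes is not given here, so it is not a comparison of the 41 genes with others. The calls lost were mostly in the comparisons with WT, where 19 of 26 held for the T12h rescue and 18 of 27 for the T48h rescue. Pfkp under T12h rescue against KO changed sign with limma, to -0.12 on log2(FPKM + 1) and -0.14 on log2(FPKM + 0.1), neither past the test. The cause was not tested. Upper-quartile scaling shifted the median of all genes by -0.14 under T48h rescue against KO and by -0.12 against WT.

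With a 2-fold minimum, 3 members were higher and 20 lower in KO than in WT. The numbers were 12 and 4 for the T12h rescue against KO, 19 and 2 for the T48h rescue against KO, 10 and 1 for the T48h against the T12h rescue, 0 and 5 for the T12h rescue against WT and 4 and 1 for the T48h rescue against WT. Of all genes, 17.9% were higher and 15.6% lower in KO than in WT. In the order above, the shares for the rescues were 15.2% and 19.4%, 16% and 20.9%, and 11% and 11.9%. Against WT they were 0.815% and 2.49% for the T12h rescue and 9.49% and 12.4% for the T48h rescue. This minimum removes smaller changes by its construction. The number lower in the T48h than under T12h rescue was 6 with upper-quartile scaling, without a filter on low counts and with unnamed loci kept. The number higher under T12h rescue than in WT was 1 on both FPKM scales.

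With 1 library left out, the counts of higher members ranged over 5 to 5 (KO against WT), 19 to 24 (T12h against KO), 27 to 28 (T48h against KO), 27 to 30 (T48h against T12h), 1 to 2 (T12h against WT) and 14 to 21 (T48h against WT). Those of lower members ranged over 29 to 32, 8 to 8, 4 to 5, 2 to 5, 19 to 24 and 4 to 8 in the same order. No paired analysis was possible because the columns carry neither the replicate number nor the run. Depth limits Gapdh and Car9, with 11 to 62 fragments per library.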

Other observations

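Other branches of glucose use were read from lists. Of 14 genes of glycogen turnover, 10 fell and none rose in KO, where 32.3% of all genes fell and 31.8% rose. Gbe1 and Pgm1 of this list were also on the list of further hypoxia targets, so the lists are not separate. In each rescue 11 were higher than in KO and none lower, where 32.7% (T12h) and 34.1% (T48h) of all genes were higher and 32.1% and 33.3% lower. Gbe1, the branching enzyme, fell from 45.8 to 13.4 CPM (log2 -1.78 ± 0.14, adjusted p = 1.1e-07), and Pygl, the liver phosphorylase, fell by 1.53 ± 0.15. Ugp2, which makes the UDP-glucose that glycogen synthase uses, fell by 0.81 ± 0.11. In the T48h rescue Pygl stood at 44.6 CPM, against 18.9 in WT.

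Of 6 pentose phosphate pathway genes tested, 4 rose and none fell in KO (31.8% and 32.3% of all genes), by 0.35 to 0.73 on the log2 scale, led by Pgls (67.3 to 111 CPM) and Rpia (12.6 to 21.0 CPM). Of 17 tricarboxylic acid cycle genes, 6 were higher and 4 lower in KO, shares near those of all genes (31.8% and 32.3%). Idh2, a mitochondrial isocitrate dehydrogenase, fell by 1.29 ± 0.08 and Mdh2, the mitochondrial malate dehydrogenase, rose by 0.90 ± 0.07. Of 12 genes of pyruvate import into the mitochondrion and of pyruvate dehydrogenase and its control, 4 fell and 3 rose in KO. These shares were again near those of all genes (32.3% and 31.8%). The pyruvate dehydrogenase kinases parted in KO, with Pdk3 at 64.4 CPM against 145 in WT and Pdk4 at 7.38 CPM against 1.32.

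Slc16a1 also has a second locus with the same coordinates, at 98.1 and 128 CPM in WT and 174 and 176 in KO, and its level there rose as well (log2 0.63, adjusted p = 0.00060).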
